A study of Mus musculus with 460 samples.

Results

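The Hox genes are the 39 homeobox transcription factors whose symbol in the table is Hox followed by a cluster letter (a, b, c or d) and a paralog number; these 39 were taken by name from 48440 genes, without use of their values. They were counted in 460 single cells from mice of 1 strain with lung adenocarcinoma, which the labels call CAFs or tCAFs (CAFs are cancer-associated fibroblasts, the connective tissue cells of a tumour). Single cells are named here by their titles, such as CAF_sc1. Every sample is 1 cell, all cells form 1 group, and the labels name no age, animal, culture or sort gate. The cells were therefore treated as 1 sample: no test between cells was possible, and each interval below is a 95% interval that covers counting error only.

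Vertebrate Hox genes lie in 4 clusters, HoxA to HoxD, and genes at the same place in different clusters form a paralog group. Low-numbered groups at the 3′ end of a cluster are switched on early and towards the head in the embryo, and high-numbered groups at the 5′ end late and towards the tail or the far end of a limb. Adult connective tissue cells keep much of this code, so it is widely used as a record of where in the body a cell comes from. In lung mesenchyme the HoxA and HoxB genes of the middle groups are the best known members, with Hoxa5 required for lung development, whereas groups 9 to 13 pattern the limbs, the gut end and the urogenital tract.

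All 460 cells had counts of at least 3 of 9 fibroblast markers, whose summed level ran from 1192.57 to 41201.4 CPM (counts of a gene per 1000000 counts of the same cells) in the cells outside the group of 11 described further on. The cells held 25029 to 240496 counts each, with a median of 88701. Markers of other cell types were also present outside that group: the summed level ran from 0 to 23951.7 CPM for 8 epithelial or lung tumour markers (median 623.5), from 0 to 8601.4 CPM for 7 immune markers (median 71.4), from 0 to 4739.1 CPM for 5 endothelial markers (median 11.5), from 0 to 7916.2 CPM for 4 mesothelial markers (median 0) and from 432.6 to 32969.7 CPM for 9 mural markers (median 4891.9). Their part in the Hox values was not tested. Of the cells, 27.6% sat in runs of columns low in the surfactant gene Sftpc, a pattern noticed in the data and not named by the labels. The table holds no cell type known to lack Hox RNA, so the share of cells that free RNA alone would give was not measured.

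On GRCm38 (mm10) Hoxa2 to Hoxa13 lie on chromosome 6 from 52162417 to 52260880 on the minus strand, HoxB lies on chromosome 11 from 96194316 to 96368256, HoxC on chromosome 15 from 102921103 to 103036852 and HoxD on chromosome 2 from 74668310 to 74765142, the last 3 on the plus strand. Of the 39 members, 22 had a promoter window in RefSeq's table for GRCm38.p6, with 24 windows in all, and the 250 bases before the start were used. Windows of 5 members are shown because these genes carry the pattern described below: Hoxa5, Hoxb4 and Hoxb8 were counted in most cells, Hoxb8 was at 0 in the 11 cells high in Hoxa10, and Hoxa10 and Hoxd11 were high there. They lie at chr6:52204588-52204837 on the minus strand (Hoxa5), chr11:96318017-96318266 on the plus strand (Hoxb4), chr11:96281655-96281904 on the plus strand (Hoxb8), chr6:52234940-52235189 on the minus strand (Hoxa10) and chr2:74682073-74682322 on the plus strand (Hoxd11). None of the 5 windows overlaps an annotated exon. The table gives a pair of starts for Hoxa10 and for Hoxd11, and the inner one is shown for each. Sequences run 5′ to 3′ on the gene's strand, and capitals mark matches on either strand to TGATNNAT (a site of Hox and Pbx proteins together), TTTATNG (a form preferred by posterior Hox and Cdx proteins) or TAATTA (a homeodomain core).
Hoxa5: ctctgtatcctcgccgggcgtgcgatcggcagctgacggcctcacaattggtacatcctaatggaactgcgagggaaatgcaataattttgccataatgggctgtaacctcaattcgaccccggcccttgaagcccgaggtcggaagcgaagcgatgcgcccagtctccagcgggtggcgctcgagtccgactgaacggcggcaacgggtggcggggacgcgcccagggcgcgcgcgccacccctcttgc
Hoxb4: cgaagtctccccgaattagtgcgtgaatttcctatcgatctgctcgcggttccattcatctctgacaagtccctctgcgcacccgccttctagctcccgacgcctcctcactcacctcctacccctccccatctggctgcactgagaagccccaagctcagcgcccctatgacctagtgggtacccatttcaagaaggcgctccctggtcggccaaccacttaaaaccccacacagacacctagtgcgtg
Hoxb8: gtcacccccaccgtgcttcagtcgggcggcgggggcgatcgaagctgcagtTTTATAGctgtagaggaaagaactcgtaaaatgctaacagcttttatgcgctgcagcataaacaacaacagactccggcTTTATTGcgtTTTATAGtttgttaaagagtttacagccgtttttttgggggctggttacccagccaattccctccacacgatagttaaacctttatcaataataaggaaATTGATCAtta
Hoxa10: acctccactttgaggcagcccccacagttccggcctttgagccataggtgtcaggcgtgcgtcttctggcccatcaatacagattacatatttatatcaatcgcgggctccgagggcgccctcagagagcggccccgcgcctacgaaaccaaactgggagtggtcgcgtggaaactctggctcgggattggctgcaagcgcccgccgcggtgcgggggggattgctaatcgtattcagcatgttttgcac
Hoxd11: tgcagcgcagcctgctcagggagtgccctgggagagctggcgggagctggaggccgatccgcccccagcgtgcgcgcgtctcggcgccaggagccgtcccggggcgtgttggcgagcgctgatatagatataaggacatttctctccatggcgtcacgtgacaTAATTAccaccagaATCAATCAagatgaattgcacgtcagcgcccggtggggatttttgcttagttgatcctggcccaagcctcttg

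The Hoxb8 window held 3 matches to TTTATNG and 1 to TGATNNAT, and the Hoxd11 window 1 to TGATNNAT and 1 to TAATTA; no match overlapped another. The Hoxa5, Hoxb4 and Hoxa10 windows held none of these letter strings. Among all 32851 windows of this length, 7.68% held TGATNNAT, 9.81% TTTATNG and 4.84% TAATTA, against 4, 2 and 2 of the 24 Hox windows. The Hoxa5 window held 28 CpG pairs, the Hoxa10 window 20, Hoxd11 20, Hoxb4 14 and Hoxb8 12. The median was 6 over all windows and 12.5 over the Hox windows. The outer windows, not shown, held 7 pairs for Hoxa10 and 2 for Hoxd11. CpG numbers overlapped between expression levels: windows of the 7 members at 10 CPM or more outside the Hoxa10-high cells held 6 to 28 pairs, and those of the 13 members under 1 CPM held 3 to 35.

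The cells carried an anterior to middle HoxA and HoxB code. Summed over all cells, the 39 genes had 18134 counts, a level of 425.6 CPM (419.4 to 431.8), and all cells but 1 had at least 1 Hox count. HoxB gave 52.6% of these counts and HoxA 43.4%, whereas HoxD gave 3.77% and HoxC 0.254%. By paralog group, groups 5 to 8 gave 52.3%, groups 1 to 4 gave 37.8% and groups 9 to 13 gave 9.92%. The last share came almost entirely from a few cells: without the 11 cells at 100 CPM of Hoxa10 or more (the Hoxa10 set, or Hoxa10-high cells) it was 1.19%, and HoxA with HoxB then held 99.3% of Hox counts. The median cell had counts of 7 members and the fullest had 16.

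The members fell into 4 level classes over all cells. There were 11 at 10 CPM or more, 9 between 1 and 10 CPM, 14 above 0 and under 1 CPM, and 5 with no count: Hoxb13, Hoxc10, Hoxc11, Hoxd12 and Hoxd13. For each of these 5 genes, 0 of 460 cells allows a share of up to 0.799% of cells with a count (exact Clopper-Pearson interval). Outside the Hoxa10-high cells 9 members stayed at 10 CPM or more, and these were also the 9 members counted in at least 25% of cells: Hoxa2, Hoxa3, Hoxa5, Hoxa6, Hoxa7, Hoxb3, Hoxb4, Hoxb5 and Hoxb8.

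Hoxb4, whose human counterpart is known for expanding blood stem cells, was counted in the most cells: 88.3% (84.96 to 91.1), or 83.1% after every cell was thinned to 56586 counts. Its level over all cells was 76.6 CPM, with a median cell at 62.7 CPM and the highest at 406.7 CPM. Hoxa5, the main regulator of lung growth and respiratory survival among these genes, was counted in 83.04% of cells (76.8% thinned) at 64.7 CPM, with a median cell at 51.4 CPM and the highest at 747.5 CPM. Both genes were thus on in most cells, with a spread of several-fold around the median. Hoxb5, which acts in lung branching and the enteric nervous system, was counted in 80.9% of cells (76.3% thinned) at 69.3 CPM, with a median cell at 39.4 CPM. All 3 were counted together in 290 cells (63.04%), and in 52.2% of the thinned cells.

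Counts per kilobase of merged exons give 1 order between genes. It holds only if barcode counts grow with exon length, which the sources used here do not state. By CPM alone Hoxb4 (76.6) came before Hoxb5 (69.3) and Hoxa5 (64.7). Hoxa5 came first at 34.5 CPM per kilobase (33.2 to 35.8), then Hoxb4 at 29.8 (28.8 to 30.9) and Hoxb5 at 24.9 (23.97 to 25.8), with intervals that did not overlap. Hoxb8 at 15.5 and Hoxa2 at 13.9 CPM per kilobase followed, then Hoxa6 at 13.4 (12.2 to 14.6); the interval of Hoxa2, a hindbrain and branchial arch gene, overlapped those of both neighbours. Hoxa7 stood at 8.27 CPM per kilobase. Hoxa3, which patterns the pharyngeal region, stood at 4.54 CPM per kilobase of merged exons but at 10.5 per kilobase of its longest transcript, so its place in the order depends on the length used. Part of Hoxa3 (27.1% of exon bases) and more of Hoxb3 (52.9%) overlaps other genes, mostly antisense transcripts; whether the counting used strand is not given in the sources used here, so their counts may include reads of those partners or lack shared ones.

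Level did not change smoothly along a cluster. In HoxA, outside the Hoxa10-high cells, Hoxa2 stood at 14.2 CPM per kilobase, Hoxa3 at 4.61, Hoxa4 at 1.07, Hoxa5 at 34.99, Hoxa6 at 13.3 and Hoxa7 at 8.45. Hoxa4 was a dip between its neighbours: Hoxa3 was 4.30 times higher (3.38 to 5.55), and the ratio of Hoxa4 to Hoxa5 was 0.0306 (0.0238 to 0.0387). It was counted in 40 cells (8.70%). After Hoxa7 the cluster was nearly silent. Hoxa9 stood at 0.0302 CPM per kilobase, and Hoxa7 was 279.9 times higher than Hoxa9 (135.4 to 698.1).

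HoxB also had a dip and a posterior edge, but at other groups than HoxA. Hoxb1 and Hoxb2, genes of the embryonic hindbrain, stood at 0.114 and 1.42 CPM per kilobase outside the Hoxa10-high cells, then Hoxb3 at 4.74, Hoxb4 at 30.4 and Hoxb5 at 25.3. Hoxb6 and Hoxb7 stood at 2.45 and 3.94, and Hoxb8 at 15.9 CPM per kilobase. Hoxb5 was 10.3 times higher than Hoxb6 (8.95 to 11.99). The posterior edge lay after Hoxb8, which was 60.6 times higher than Hoxb9 (41.8 to 91.5). Of the 28 Hoxb9 counts in these cells, 25 came from 1 cell.

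HoxC and HoxD counts were rare in the same cells. HoxC had 46 counts in 16 cells, none of them in the Hoxa10-high group, and its most counted gene was Hoxc4 with 13 counts in 6 cells. HoxD outside the Hoxa10-high cells had 66 counts in 30 cells, of which Hoxd11 gave 49 and Hoxd10 gave 10. Hoxd1, Hoxd3, Hoxd4, Hoxd8 and Hoxd9 each had 0 to 3 counts there. Hoxd3 and Hoxd4 share 62.8% and 52.3% of their exon bases with other genes, so their few counts cannot be split with certainty.

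**Figure D1:**
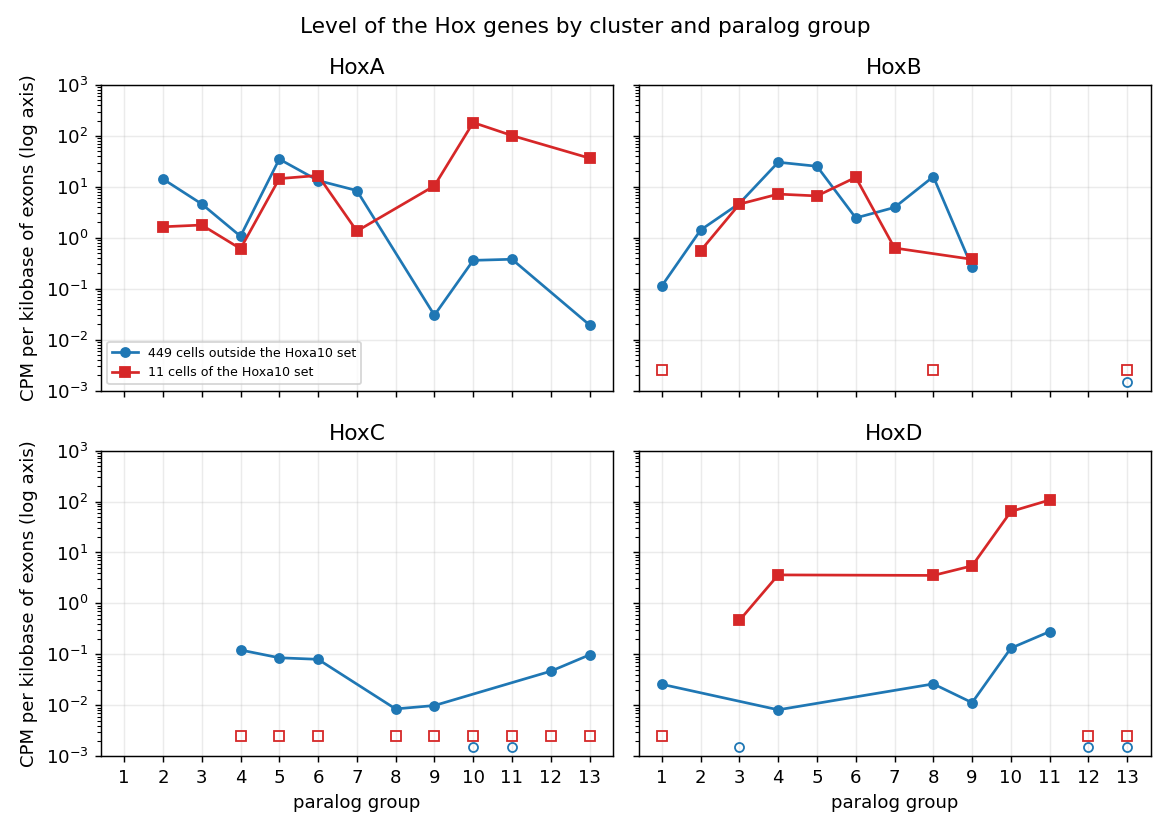
Level of Hox genes (CPM per kilobase of merged exons, log axis) by paralog group in the 4 clusters, for the cells outside the Hoxa10 set (blue circles) and the 11 cells of the set (red squares); open symbols at the bottom mark genes with no count in that set of cells. Outside the set HoxA is lower after Hoxa7 (8.45 to 0.0302 for Hoxa9) and HoxB after Hoxb8 (15.9 to 0.262 for Hoxb9), whereas in the set HoxA and HoxD are highest at groups 10 and 11.

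Cells with more Rgs5 than Pdgfra were compared with the rest to ask whether the code differs between cells on the mural and on the fibroblast side of the population; Rgs5 marks pericytes and other mural cells, and Pdgfra marks fibroblasts. Such cells were 44.1% (39.5 to 48.8) of the 460, and there were no ties. Most members of groups 1 to 8 differed by less than 2-fold between these sets, as most genes did. Of the 23 members of groups 1 to 8, 14 reached 1 CPM over all cells; 1 of these was higher by 2-fold or more in the Rgs5 cells and 0 were lower, while 7.08% of all 16973 genes at 1 CPM or more were higher and 7.77% lower. The median ratio of the 14 was 1.17, beside 1.02 over all genes at 1 CPM or more.

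The 3 leading genes were a little higher in the Rgs5 cells. Hoxb4 stood at 85.5 against 70.7 CPM (ratio 1.21, 1.13 to 1.30), Hoxb5 at 77.2 against 64 CPM (1.21, 1.12 to 1.30) and Hoxa5 at 72.5 against 59.6 CPM (1.22, 1.13 to 1.31). These ratios stayed between 1.10 and 1.48 under the alternatives run. All 3 genes together were counted in 68.97% of the Rgs5 cells and 58.4% of the rest, and in 60.8% and 46.1% after thinning. Hoxa2 (27.5 against 22.9 CPM, ratio 1.20, 1.06 to 1.36) and Hoxb2 (5.84 against 4.25 CPM, 1.37, 1.04 to 1.82) also had intervals above 1. Hoxa2 was nevertheless counted in fewer of the Rgs5 cells, 47.3% against 56.4% of the rest (39.2% and 46.5% thinned). Hoxb2 was counted in 20.2% against 17.5%. Hoxb8 (41.8 against 40.1 CPM), Hoxa7 (24.5 against 23.3 CPM), Hoxa3 (28.4 against 26.6 CPM) and Hoxb3 (19.8 against 20.3 CPM) had intervals of the ratio that included 1.

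Hoxb6 was the one of these 14 with an interval wholly under 1. It stood at 4.25 CPM in the Rgs5 cells and 6.20 CPM in the rest, a ratio of 0.685 (0.511 to 0.911), and was counted in 12.8% and 23.3% of cells (9.94% and 18.1% thinned). Without the Hoxa10-high cells the ratio was 0.825 with an interval of 0.609 to 1.11, and in the runs low in Sftpc it was 1.13.

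The 6 members of groups 9 to 13 that reached 1 CPM (Hoxa9, Hoxa10, Hoxa11, Hoxa13, Hoxd10 and Hoxd11) were all lower in the Rgs5 cells, but 10 of the 11 Hoxa10-high cells lie in the other set and gave these genes most of their counts. The remaining one, cell CAF_sc232, fell among the Rgs5 cells by a narrow margin (214.9 CPM of Rgs5, 204.6 CPM of Pdgfra). Without those 11 cells, Hoxa10 (1.90 against 0.688 CPM, ratio 2.76) and Hoxd11 (2.14 against 0.526 CPM, ratio 4.06) were higher in the Rgs5 cells, where 7.5% of genes were higher and 7.41% lower. Hoxa11, then under 1 CPM, had a ratio of 3.81. These values depended on 1 cell, cell CAF_sc452. Without it as well, an alternative chosen after seeing the data, the ratio was 1.31 for Hoxa10 (0.608 to 2.79, 15 against 17 counts), 0.593 for Hoxa11 (0.136 to 2.06) and 0.913 for Hoxd11 (0.328 to 2.38). Hoxa10 thus kept its direction and the other 2 did not, and all 3 intervals included 1.

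Other properties moved with this split. Of the 9 mural markers 8 were higher by 2-fold or more, and of the 9 fibroblast markers 3 were lower, beside 7.08% and 7.77% of all genes. These lists hold Rgs5 and Pdgfra, which made the split. Of the 5 endothelial markers 1 was higher and 0 were lower. The Rgs5 cells had a median total of 76944 counts against 96654, and 64 of them (31.5%) lay in the runs low in Sftpc, against 63 (24.5%) of the rest. All 6 immune markers at 1 CPM or more were higher by 2-fold or more in the Rgs5 cells, beside 7.08% of all genes. The summed level over the 7 immune markers was 0 to 8601.4 CPM (median 75.5) against 0 to 5529 CPM (median 70.1). Of the 4 mesothelial markers 3 were higher (median ratio 19.98), with sums of 0 to 7916.2 CPM against 0 to 631.9 CPM. The median sum was 0 in both, and 8 Rgs5 cells against 15 others had counts of 3 or more of these markers. Of the 8 epithelial or lung tumour markers 4 were higher (median ratio 1.99), with sums of 0 to 20960.3 CPM (median 710.1) against 0 to 23951.7 CPM (median 607). The part of depth and of these other cell markers in the Hox ratios was not tested beyond the thinned values above.

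**Figure D2:**
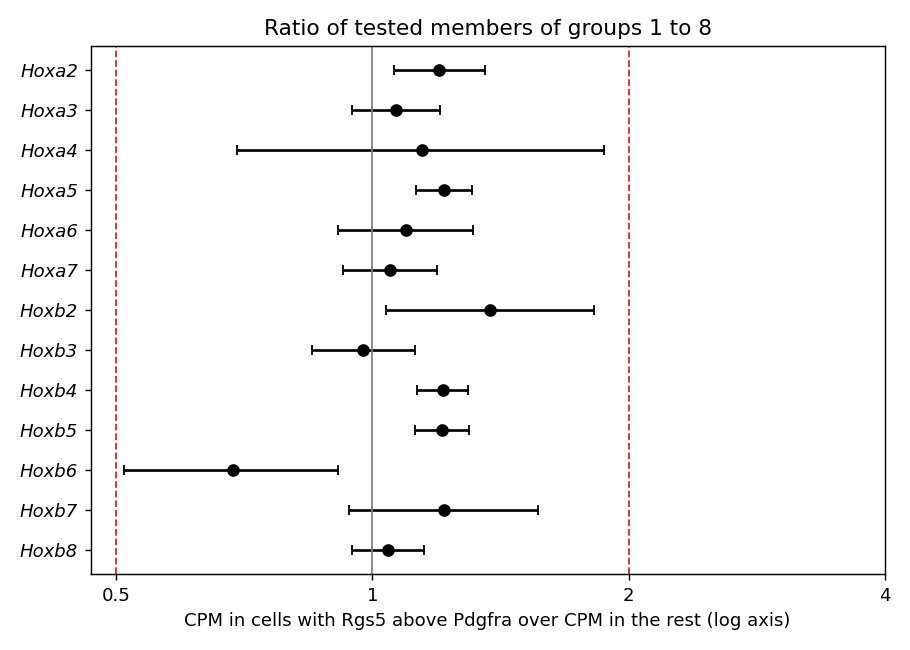
Ratio of CPM in the cells with Rgs5 above Pdgfra (44.1% of cells) to CPM in the other cells (log axis) for members of groups 1 to 8 at 1 CPM or more; bars are exact 95% counting intervals, the grey line marks equal levels and the red dashed lines the 2-fold limit. The members drawn lie between the limits, with Hoxb6 (0.685) the lowest and Hoxb2 (1.37) the highest. Hoxb4, Hoxb5 and Hoxa5 lie at 1.21 to 1.22.

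A different code was found in 11 cells (2.39% of cells, 1.20 to 4.24) with Hoxa10 at 100 CPM or more. Hoxa10, a gene of the uterus, the reproductive tract and the proximal limb, chose these cells, so its own values are a description: 337.3 to 1003 CPM in the set, with cell CAF_sc94 lowest and cell CAF_sc232 highest. The next cell, cell CAF_sc452, stood at 90.6 CPM, and the ones after it, cells CAF_sc375 and CAF_sc211, at 26.7 and 26.4 CPM with 1 and 2 counts. The threshold therefore sits in a gap, except for cell CAF_sc452, which is described on its own below. The cells of the set held 66710 to 138720 counts with a median of 82374, against a median of 88970 in the others.

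In the set the posterior members were high and most anterior members were low. Groups 9 to 13 gave 90.01% of Hox counts (88.5 to 91.4), at 1002 to 2876 CPM per cell, but this includes Hoxa10, which chose the cells. Without Hoxa10 they gave 84.7% of the remaining Hox counts (82.5 to 86.8), at 204.6 to 2268 CPM per cell, against 0.895% outside the set, where cell CAF_sc452 was highest at 287.9 CPM; groups 1 to 8 lay between 20.5 and 394.4 CPM per cell. Of the 20 members at 1 CPM or more over all cells, 7 were higher by 2-fold or more in the set and 10 lower, beside 13.7% of all genes higher and 26.5% lower. The 7 were Hoxa9, Hoxa10, Hoxa11, Hoxa13, Hoxd10, Hoxd11 and Hoxb6. Hoxa10 chose the cells, and Hoxa9, Hoxa11, Hoxa13 and Hoxd10 reached 1 CPM only through the set, so the number of posterior members is no support by itself. The 14 members of groups 1 to 8 had a median ratio of 0.324, beside 0.953 over all genes compared.

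Hoxa11, the neighbour of Hoxa10 with roles in the uterus, kidney and forearm, was counted in all 11 cells. Its CPM was 558.4 in cell CAF_sc162, 329.8 in cell CAF_sc198, 308.5 in cell CAF_sc299, 287.6 in cell CAF_sc34, 262.3 in cell CAF_sc94, 251.7 in cell CAF_sc292, 225.98 in cell CAF_sc13, 204.6 in cell CAF_sc232, 118.3 in cell CAF_sc184, 79.3 in cell CAF_sc49 and 68.3 in cell CAF_sc266. The 2 lowest cells lay under cell CAF_sc452 (117.3 CPM), so the groups overlapped there; the next highest cell outside the set, cell CAF_sc273, had 19.3 CPM. Over the set the level was 232.3 CPM against 0.866 CPM, a ratio of 268.3 (188.4 to 392.3). Part of Hoxa11 (34.98% of exon bases) overlaps its antisense transcript Hoxa11os, which was itself counted in 10 of 11 cells of the set at 38.9 CPM and had 1 count in the others.

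Hoxa9 was counted in 10 of 11 cells at 58.3 CPM against 0.168 CPM (ratio 346.4, 158.2 to 898.4). Cell CAF_sc13 had 165.1 CPM and cell CAF_sc34 had 112.5, cell CAF_sc299 only 9.07, and cell CAF_sc232, the highest for Hoxa10, had none. The level of Hoxa9 thus did not follow that of Hoxa10 from cell to cell.

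The HoxD arm was present in 9 of the 11 cells. Hoxd11, which acts in kidney and forearm together with Hoxa11, stood at 1223 CPM in cell CAF_sc184, 1116 in cell CAF_sc299, 799.6 in cell CAF_sc13, 587.1 in cell CAF_sc94, 434.7 in cell CAF_sc198, 282.8 in cell CAF_sc266, 223.5 in cell CAF_sc49, 187.5 in cell CAF_sc34 and 62.9 in cell CAF_sc292, and at 0 in cells CAF_sc162 and CAF_sc232. Hoxd10 was counted in the same 9 cells, from 7.21 CPM in cell CAF_sc49 to 349.8 CPM in cell CAF_sc94, and at 0 in the same 2. Cells CAF_sc162 and CAF_sc232 thus had a HoxA arm of 692 and 1003 CPM of Hoxa10 with no count of any HoxD member. In contrast, Hoxd11 exceeded Hoxa10 in CPM in cells CAF_sc184, CAF_sc299, CAF_sc13 and CAF_sc94, a comparison within each cell that does not correct for the longer exons of Hoxd11.

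Hoxa13, the last HoxA gene, which patterns the far limb, the hindgut and the genital tubercle, marked a further division. It was counted in 2 of the 11 cells, cell CAF_sc299 (508.1 CPM, 56 counts) and cell CAF_sc49 (266.7 CPM, 37 counts), and in none of the other 9. Outside the set it had 2 counts in 2 cells. No count of Hoxd12, Hoxd13, Hoxb13 or any HoxC gene was made in the set. The middle HoxD genes were thin: Hoxd4 had 11 counts in 4 cells of the set, Hoxd8 10 counts in 3 and Hoxd9 12 counts in 3, beside 1, 3 and 1 counts in all other cells.

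The anterior and middle genes were lower in the set by unequal amounts. Hoxb8, a gene of the trunk and of blood cell precursors, had no count in any of the 11 cells, against 61.7% of the other cells (57.02 to 66.2), where it stood at 41.8 CPM. A count of 0 in 11 cells allows a share of up to 28.5%. Taking 3 counts over the set as the limit of a count of 0, it was at least 14.3-fold lower. Hoxb4 stood at 18.5 CPM in the set against 77.99 CPM (ratio 0.237, 0.142 to 0.370), Hoxb5 at 18.5 against 70.5 CPM (0.262, 0.157 to 0.410) and Hoxa5 at 27.2 against 65.7 CPM (0.414, 0.275 to 0.600). The Hoxa5 window printed above thus belongs to a gene that was counted in 5 of the 11 cells, from 37.5 CPM in cell CAF_sc34 to 124.9 CPM in cell CAF_sc94.

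Hoxa2 stood at 2.92 against 25.3 CPM and Hoxa7 at 3.89 against 24.3 CPM. Hoxb3 at 19.4 against 20.1 CPM and Hoxa6 at 14.6 against 11.6 CPM had ratios whose intervals, 0.587 to 1.501 and 0.697 to 2.09, included 1. Hoxb6, low in the other cells, was the exception in the other direction. It was counted in 7 of 11 cells against 17.6% of the others, at 30.1 against 4.81 CPM (ratio 6.26, 4.15 to 9.18). Cell CAF_sc49 alone had 93.7 CPM of Hoxb6, and without it the ratio was 4.20. Hoxb2, among the 10 lower members, had 2 counts in the set and an interval that included 1.

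**Figure D3:**
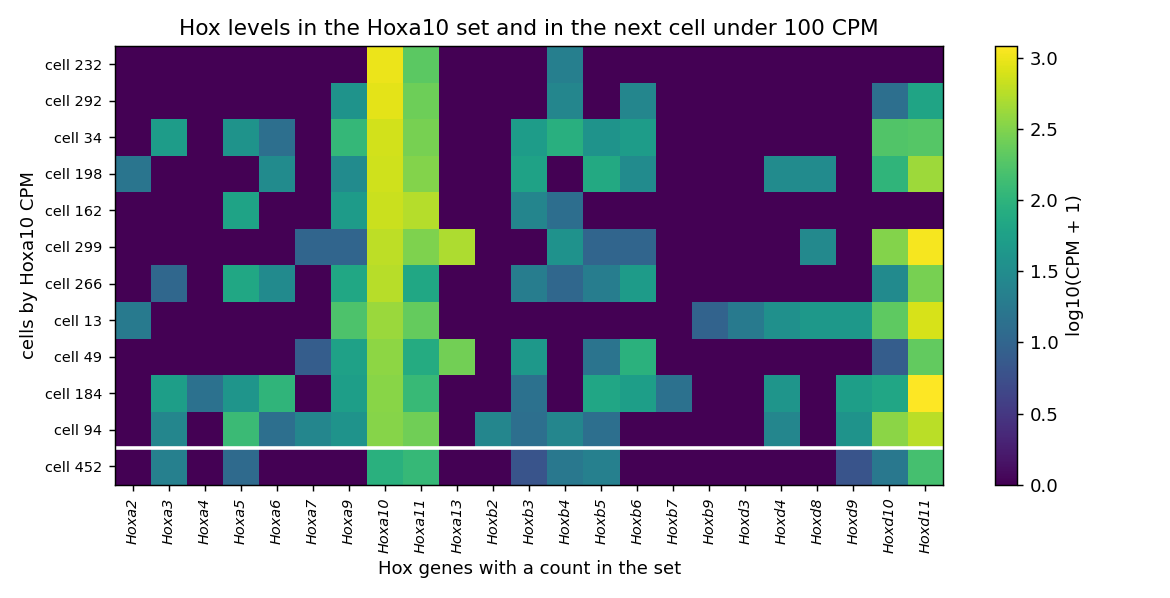
Level of Hox genes with a count in the Hoxa10 set, as log10(CPM + 1), in the 11 cells ordered by Hoxa10 (top, 1003 CPM, to 337.3 CPM) and, under the white line, in cell CAF_sc452 at 90.6 CPM. Hoxa10 and Hoxa11 are present in all 12 rows, Hoxa13 in cells CAF_sc299 and CAF_sc49 alone, and the HoxD genes are at 0 in cells CAF_sc232 and CAF_sc162.

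Cell CAF_sc452 shared several posterior genes with the set but lay on the other side of the Rgs5 split. It held 17 counts of Hoxa10, 22 of Hoxa11, 28 of Hoxd11 and 3 of Hoxd10, and none of Hoxa9 or Hoxa13. Its Hoxa11 (117.3 CPM), Hoxd11 (149.3 CPM) and Hoxd10 (15.99 CPM) lay within the range of the set. Groups 9 to 13 gave 83.5% of its Hox counts, close to the 82.3 to 98.3% of the single cells in the set. It also had Hand2 at 149.3 CPM, under the lowest cell of the set (208.6 CPM), and Pgr at 181.3 CPM, above the lowest (165.8 CPM). Unlike 10 of the 11, it had more Rgs5 (581.1 CPM) than Pdgfra (69.3 CPM). Its total of 187565 counts was above that of every cell of the set, and whether it holds the RNA of more than 1 cell was not tested.

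**Figure D4:**
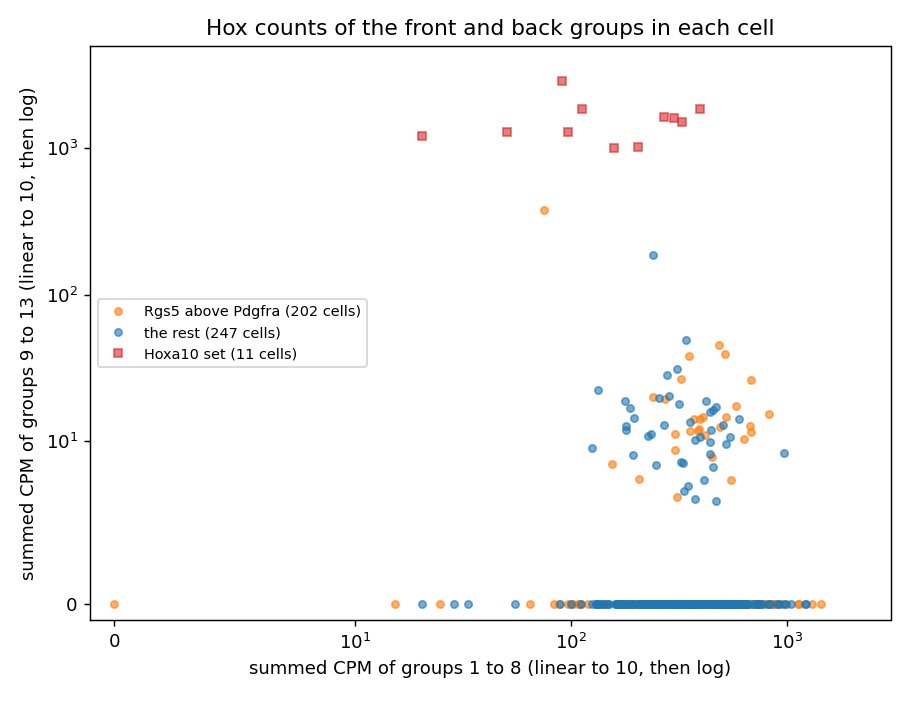
Summed CPM of the members of groups 1 to 8 (x axis) and of groups 9 to 13 (y axis) in each of the 460 cells; both axes are linear to 10 and logarithmic above. The 11 cells of the Hoxa10 set lie between 1002 and 2876 CPM of groups 9 to 13 (Hoxa10, which chose them, included), cell CAF_sc452 follows at 378.5 CPM, and most other cells lie at 0.

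A few further cells departed from the code in 1 gene or 1 cluster. Cell CAF_sc105 had 25 counts of Hoxb9, the gene after Hoxb8, at 187.7 CPM, together with 9 counts of Hoxb8 and no count of another member of groups 9 to 13. HoxC genes were counted in cell CAF_sc86 (6 of Hoxc4 and 4 of Hoxc5) and in cell CAF_sc154 (1 of Hoxc4, 6 of Hoxc5 and 4 of Hoxc6), both with the HoxA and HoxB genes of the majority. Cell CAF_sc9 had 6 counts of Hoxc13. Cell CAF_sc415 had no Hox count among 146742 counts. Groups 9 to 13 had a count in 71 cells outside the set (15.8% of them), or in 10.7% after thinning.

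Mural markers were low in the Hoxa10 set: 8 of 9 were lower by 2-fold or more, beside 26.5% of all genes, with a summed level of 985 to 3546.7 CPM against 432.6 to 32969.7 CPM, and 10 of its 11 cells had more Pdgfra than Rgs5. Of the 9 fibroblast markers 3 were also lower and 1 was higher, beside 26.5% and 13.7% of all genes. They summed to 7573.3 to 20474.1 CPM (median 12152.4) in the set and 1192.6 to 41201.4 CPM (median 15779.3) outside it. Of the immune markers, 5 of 6 at 1 CPM or more were lower, with Cd68, Tyrobp, Cd3e and Cd79a at 0. Lyz2 was counted in all 11 cells at 157.5 against 179.2 CPM. The immune list summed to 17.4 to 1130.7 CPM (median 119.9) in the set and 0 to 8601.4 CPM (median 71.4) outside it. Of the 4 mesothelial markers 3 were lower, with Lrrn4 at 0, and Upk1b was higher at 143.8 against 22.7 CPM in 7 of 11 cells. The mesothelial list summed to 0 to 417.2 CPM (median 65.7) in the set and 0 to 7916.2 CPM (median 0) outside it. For both lists the median sum was thus higher in the set, although most single markers were lower over summed counts. Of the 8 epithelial or lung tumour markers Cdh1 was higher (108.9 against 38.9 CPM, in 5 cells) and 0 were lower, with sums of 0 to 10728.8 CPM in the set. The part of these cell types in the Hox values of the set was not tested. Cell CAF_sc232 was the only one of the set in a run low in Sftpc, so the code of the set outside those runs is that of the other 10 cells.

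Hox proteins bind DNA with cofactors of the Pbx, Meis and Pknox families. Of 9 cofactor genes 8 reached 1 CPM, and none differed by 2-fold between the Rgs5 cells and the rest (median ratio 1.26, beside 1.02 over all genes compared). In the Hoxa10 set (median ratio 1.15, beside 0.953) 3 were higher by 2-fold or more and 2 lower, beside the 13.7% and 26.5% of all genes. Meis2 (85.5 against 36.02 CPM) and Pknox2 (148.7 against 38.1 CPM) were among the higher ones, whereas Meis1 (69.01 against 170.4 CPM) and Pbx3 (9.72 against 35.1 CPM) were lower.

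Of 16 regulators of Hox chromatin, all above 1 CPM, 0 differed by 2-fold between the Rgs5 cells and the rest (median ratio 1.10). In the Hoxa10 set (median ratio 1.18) 3 were higher and 0 lower, beside 13.7% and 26.5% of all genes, a share of higher genes near that background: Kdm6a, which removes a Polycomb mark, at 266.3 against 72.9 CPM, Ezh1, a Polycomb enzyme, at 258.5 against 98.7 CPM, and Cbx7, a Polycomb reader, at 62.2 against 21.4 CPM. Kmt2a, the Trithorax-type activator of Hox genes, stood at 543.3 against 646.2 CPM. Retinoic acid switches on anterior Hox genes in embryos. Of 16 genes of its pathway 13 reached 1 CPM. In the Rgs5 cells 3 were lower and 0 higher (median ratio 0.739), beside 7.77% and 7.08% of all genes. Aldh1a1 was among the lower ones at the limit itself (ratio 0.4999, 0.460 to 0.543). Rarb was another (ratio 0.298), but it was high in the Hoxa10 set, where only 1 of 11 cells is an Rgs5 cell. In the set (median ratio 0.754) 2 were higher and 1 lower, beside the same 13.7% and 26.5% of all genes. Rarb, a receptor and a direct target of retinoic acid, was higher at 124.4 against 4.67 CPM, from 0 to 526.2 CPM per cell. Aldh1a3 was higher at 21.4 against 6.16 CPM, in 2 cells, and Aldh1a1 was lower at 11.7 against 72.9 CPM. The lists were chosen with earlier results of these data known, and the counts describe them only.

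Of the other transcripts of the clusters, 4 of 18 measured reached 1 CPM. Hotairm1, an RNA of the HoxA cluster, was counted in 59.8% of cells at 22.7 CPM, and was lower in the set (6.80 against 23.1 CPM). Hotair of the HoxC cluster, Hottip beyond Hoxa13, and Evx1 and Evx2, the homeobox genes past the ends of HoxA and HoxD, had no count in any cell. Of the lung mesenchyme transcription factors, 11 of 11 reached 1 CPM, and in the set 2 were higher and 6 lower (median ratio 0.319), beside 13.7% and 26.5% of all genes. The lower ones were Tbx4 (31.1 against 534 CPM), Tbx5 (38.9 against 667.3 CPM), Meox2 (4.86 against 129.7 CPM), Meox1 (0.972 against 40.3 CPM, 1 count), Tbx2 and Foxf2, and the higher ones Tbx3 (ratio 2.02) and Tcf21 (ratio 2.19). Of 10 posterior and urogenital genes 6 reached 1 CPM, and all 6 were higher in the set; several of these genes were known from earlier results to mark these cells, so this is no independent support. Emx2, a gene of the developing urogenital tract, was counted in cells CAF_sc94, CAF_sc34, CAF_sc49 and CAF_sc299, the last 2 of which are the Hoxa13 cells. Wt1 was counted in all 11 cells, from 9.75 to 469.3 CPM.

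Within the common code, members were only weakly correlated from cell to cell. Across 460 cells the Spearman correlations between the 9 members counted in at least 25% of cells, computed on depth-scaled log values, ran from -0.07 to 0.22 over 36 pairs, with a median of 0.07. Pairs within a cluster had a median of 0.09 and pairs between clusters 0.04. The closest pairs were Hoxa6 with Hoxa7 and Hoxb5 with Hoxb8, both at 0.22. The values share library depth and sparse counts and are given as a description. No gene outside the family had a correlation above 0.4 with any of the 9, so none is named.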

How the data were processed

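The deposited table holds whole-number molecular barcode counts per gene and cell, and the labels describe single-cell RNA-seq libraries made with sonication and ligation. Per the submitters' processing notes STAR, HTSeq and mm10 were used; versions, strand setting, annotation and the step from reads to barcode counts are not given in the sources used here. All 460 cells were kept, and no doublet caller was run. CPM of a set of cells is summed counts over summed totals times 1000000, with exact Poisson, Clopper-Pearson or conditional binomial 95% intervals, which cover counting error only. Genes at 1 CPM over the cells compared entered a comparison, and a 2-fold ratio was the limit. Lengths and exon overlap came from GENCODE vM21 (all 39 matched), promoters from RefSeq. For thinned values 46 cells under 56586 counts were left out, leaving 414. Python 3.11.15, numpy 2.4.6, pandas 2.3.3 and scipy 1.17.1 were used, and functions were tested on simulated data. The members and lists were chosen with earlier results of these data known. All members may be named, and of each list the 5 most abundant and those past 2-fold. The alternatives were other scalings, thresholds, filters, depths and subsets of cells. A few genes, 1 member among them, enter the counts and sums but are not reported here.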

Additional observations from a re-analysis of the deposited data

How the results depend on the processing

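No paired analysis was possible because there is 1 group and no result comes from a test. Of the values recomputed for the main results 24 moved. Among the others, shares and the median correlation stayed within their interval, counts within 1.5 times and ratios on the same side of the fold limit. By this rule the median ratio of groups 1 to 8 in the Hoxa10 set (0.324) did not move, though it ran from 0 to 0.370. The cause of the moves was not tested except where cells were removed by construction. The share of Hox level in groups 9 to 13 (9.92%) was 9.26% as a mean of single cells, 10.7% thinned, 1.19% without the Hoxa10-high cells, 3.12% in the runs low in Sftpc and 12.2% outside them. The share in HoxA and HoxB (95.97%) was 96.3% as a mean of single cells, 99.3% without the Hoxa10-high cells, 99.7% in those runs and 94.7% outside them. Members higher in the Rgs5 cells (1) were 0 on thinned counts, 0 with over 2 times as much of 1 gene, 3 without the Hoxa10-high cells, 3 in the runs low in Sftpc, 0 at 10 CPM or more and 5 with no filter. Members lower (6) were 0 without the Hoxa10-high cells (with or without cell CAF_sc452), 0 in those runs, 2 at 10 CPM or more and 14 with no filter. The Rgs5 ratio of Hoxa10 reversed from 0.368 to 2.76 without the Hoxa10-high cells, 1.31 without cell CAF_sc452 as well and 23.7 in those runs, that of Hoxa11 from 0.304 to 3.81 without the Hoxa10-high cells and to 11.3 in those runs, and that of Hoxd11 from 0.114 to 4.06 and 1.69. The only Hoxa10-high cell in those runs, cell CAF_sc232, was an Rgs5 cell by a narrow margin. Its 98 counts of Hoxa10 and 20 of Hoxa11 thus enter the Rgs5 side of the ratios there. In the Hoxa10 set, the runs low in Sftpc hold 1 cell, cell CAF_sc232: there 2 members were higher, groups 9 to 13 gave 98.3%, and the ratios of Hoxb6, Hoxa13, Hoxd10 and Hoxd11 were 0. Members higher in the set were 2 at 10 CPM or more. Leaving out each cell of the set in turn gave shares of groups 9 to 13 from 88.4% to 90.8%. With the threshold on thinned counts Hoxa13 gave no ratio, since no other cell had a count. Single cells hold few counts of most members, so depth limits shares of cells with a count.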
